A study of Mus musculus with 16 samples.

Results

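A set of 8 genes that handle cholesterol and lipoproteins was followed in mouse retinal pigment epithelium (RPE). They were Scarb1, Srebf2, Nr1h2, Hmgcs1, Abca1, Abcg1, Apoe and Mttp. Each was found by its symbol among the 51912 genes of the deposited count table, and all 8 were among the 15380 genes tested. Donor mice were C57BL/6 males of 40 weeks, either wild type or without Sucnr1, the succinate receptor gene, and either untreated or exposed to the oxidant hydroquinone. The 4 groups were untreated wild type, hydroquinone-exposed wild type, untreated Sucnr1 knockout and hydroquinone-exposed Sucnr1 knockout, with 4 libraries each, 1 eye per library. How the knockout was made, and the dose, route and time of exposure, are not given in the sources used here. By the titles the 16 libraries came from 13 mice, which were 2 untreated wild-type, 4 exposed wild-type, 3 untreated knockout and 4 exposed knockout mice. The protocol text instead gives 4 animals per group. Each eye counts as 1 library in the fits, so p-values measure the spread between eyes, some of them of 1 mouse.

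The RPE takes up lipid from the blood side and from the tips of photoreceptor outer segments, which it engulfs every day. Cholesterol that it does not use leaves through ABC transporters and apolipoprotein E, or on particles built with microsomal triglyceride transfer protein. Lipid-rich deposits beneath the RPE are a feature of age-related macular degeneration. Cells sense sterol in a pair of ways. When sterol is low, SREBP-2 enters the nucleus and turns on synthesis and uptake genes, and when oxysterols are high, liver X receptors (LXR), paired with RXR, turn on efflux genes.

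Library totals ran from 21113549 to 35332444 counts, and levels are given as CPM, a gene's counts scaled to a fixed library size. Between 21277 and 24477 genes were detected in 14 libraries, against 17904 in untreated knockout replicate 1 and 18282 in untreated wild-type replicate 3. Sucnr1 itself was at most 0.666 CPM in any wild-type library and at most 0.0968 CPM in any knockout library, so its level does not check the labels. All 11 RPE markers were present in every library, with a summed level of 20384.5 to 31704 CPM. Markers of other eye tissues were present too, although the anterior segment and retina had been dissected away. The 15 rod markers summed to between 264 and 24893 CPM and the 7 corneal epithelium markers to between 3384 and 27948 CPM, and no marker of these lists was at 0. In such mixed tissue, fewer cells of a type and less RNA per cell cannot be told apart. Library identifiers came in 2 forms, without a letter (9 libraries) and with one (7 libraries), and values within each form are given where they differ.

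Levels per gene are CPM with TMM-scaled library sizes, and levels between genes are compared per kilobase of exon. Apoe stood far above the rest, with a median of 3092 CPM per kb over the 16 libraries, higher in mean CPM than 99.97% of the genes tested. Hmgcs1 followed at 50.2 and Srebf2 at 24.0 CPM per kb, and the libraries of these top 3 genes did not overlap in this measure. Nr1h2 (19.7), Abca1 (15.7), Scarb1 (10.2), Abcg1 (6.06) and Mttp (2.93 CPM per kb) came next, and each overlapped its neighbour in the order. Abca1 and Abcg1 varied most, by 2.71-fold and 2.37-fold between their lowest and highest library. The other 6 members varied by 1.70-fold to 1.86-fold. Eyes of 1 mouse also differed, by up to 1.87-fold for Abca1 and 1.74-fold for Abcg1. Abca1 was 178 CPM in the left and 95.5 CPM in the right eye of an untreated wild-type mouse, and Abcg1 was 51.2 and 29.4 CPM in the left and right eye of another. Apoe differed by at most 1.12-fold between the eyes of each of the 3 mice that gave both. In each of these mice the library of 1 eye had an identifier with a letter and the other had none. Eye and identifier form therefore cannot be told apart in these differences. The right eye with 29.4 CPM of Abcg1 was untreated wild-type replicate 3, 1 of the 2 libraries of fewest genes.

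**Figure D1:**
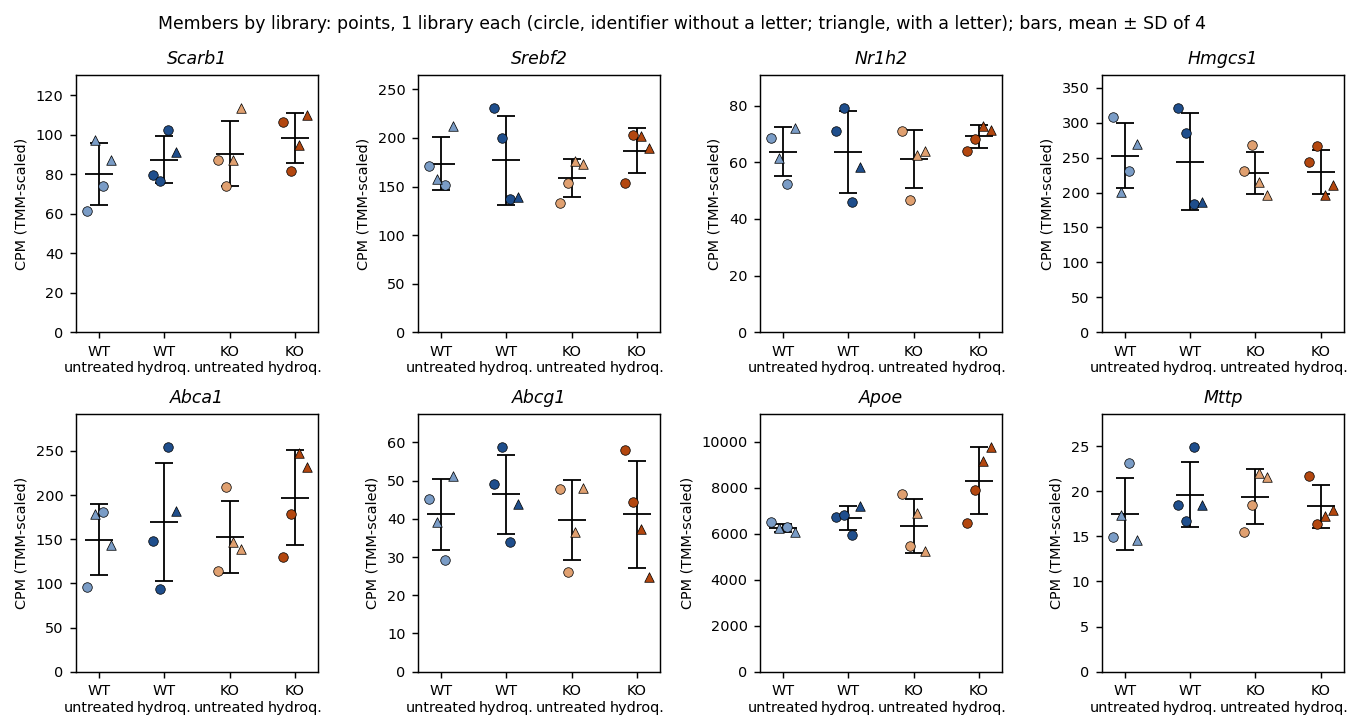
Levels of the 8 members (vertical axes, TMM-scaled CPM from 0) in each library of the 4 groups (horizontal axes); circles are libraries whose identifier has no letter and triangles those with one, and bars are the mean ± SD of 4 libraries. The groups overlap in every panel, and the highest Apoe values, 9163 and 9752 CPM, are in the knockout group with hydroquinone.

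Promoter sequence from RefSeq (GRCm38.p6, 250 bases before to 50 after a transcript start, with several starts for some genes) was read for 6 members. Matches to a sterol regulatory element core, the letters TCACCCCA, and to the direct repeat bound by LXR with RXR, a pair of half-sites GGTNA with 5 bases of any kind between them, were searched on both strands. They are shown because several members are textbook targets of one or the other of these sterol sensors. The first pattern was in 1.56% and the second in 0.718% of 32851 promoters, and no promoter below held both. Capitals mark the match, and the last pair holds it on the opposite strand.
Srebf2, chr15:82147081-82147140, plus strand: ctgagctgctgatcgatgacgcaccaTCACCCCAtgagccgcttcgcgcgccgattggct
Hmgcs1, chr13:119690188-119690247, plus strand: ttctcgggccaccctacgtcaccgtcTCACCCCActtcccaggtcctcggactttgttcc
Apoe, chr7:19699368-19699427, minus strand: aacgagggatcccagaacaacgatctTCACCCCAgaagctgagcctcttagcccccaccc
Abca1, chr4:53159922-53159988, minus strand: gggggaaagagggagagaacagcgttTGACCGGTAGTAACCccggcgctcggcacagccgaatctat
Srebf1, chr11:60210613-60210679, minus strand: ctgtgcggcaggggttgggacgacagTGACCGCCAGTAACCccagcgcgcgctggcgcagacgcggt
Counted from the RefSeq start of each window, which can differ from the GENCODE gene ends given below, the sterol element letters began 162, 137 and 213 bases upstream in Srebf2, Hmgcs1 and Apoe. The repeat began 67 and 182 bases upstream in Abca1 and Srebf1. For Srebf1 that start is an alternative one inside the gene, and the windows at its other RefSeq starts held neither pattern. A match is a description of these letters and not a measured binding site. Abcg1 and Scarb1 had no promoter entry, and Nr1h2 and Mttp held neither pattern in this window. Srebf1, the SREBP-1 gene, is not one of the 8 genes and is shown because it had the smallest p with hydroquinone among the pathway genes tested.

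No member passed the threshold (edgeR quasi-likelihood test, Benjamini-Hochberg adjusted p below 0.05 over 15380 genes) in any of 7 contrasts. This also held with DESeq2, with limma and under each other alternative run. For hydroquinone the share of all genes called was 0.0065% in wild type, 0.0455% in knockout and 0.0845% averaged over genotype. For knockout against wild type in each treatment, for their average and for the interaction it was 0%. At an unadjusted p below 0.05, 0 of 8 members were reached for hydroquinone in wild type, 1 (Apoe) in knockout and 1 (Apoe) on average, against 4.25%, 2.97% and 5.68% of all genes. Averaged over genotype, 7 of 8 members were above 0 on the log2 scale, with a median of 0.12, and 51.2% of all genes were above 0, with a median of 0.00. The 95% intervals of all 8 average changes lay between 0.808-fold and 1.65-fold. None of the 8 separated the libraries of any pair of groups compared, against 2.91% of genes for hydroquinone in wild type, 1.91% in knockout, and 1.05% and 2.33% for knockout in untreated and exposed mice.

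**Figure D2:**
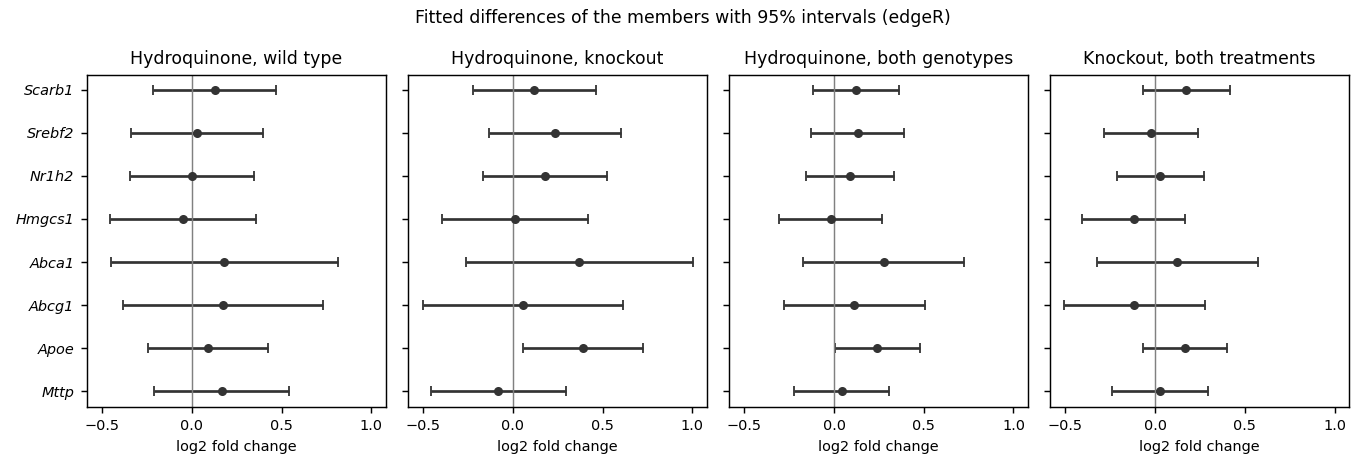
Fitted log2 fold changes (horizontal axes) of each member (vertical axis) with 95% intervals, for hydroquinone in wild type, in knockout and averaged over both genotypes, and for knockout averaged over both treatments. Intervals include 0 except those of Apoe with hydroquinone in knockout (0.06 to 0.73) and on average (0.00 to 0.48), neither of which passed after adjustment over all genes.

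Uptake is represented by Scarb1 (ENSMUSG00000037936, chromosome 5, 125277087 to 125341094, minus strand, GRCm38), the scavenger receptor that exchanges cholesterol with high-density lipoprotein. It was 80.0 ± 15.6 CPM in untreated and 87.3 ± 11.9 CPM in exposed wild type, and 90.4 ± 16.5 and 98.2 ± 12.7 CPM in untreated and exposed knockout (SD, n = 4 libraries each). The order of these means follows genotype and then treatment, but every group overlapped the others. The knockout difference averaged over treatment was 0.17 on the log2 scale (SE 0.11, edgeR adjusted p = 0.987), with a 95% interval of -0.07 to 0.41. With hydroquinone the average change was 0.12 (SE 0.11, edgeR adjusted p = 0.926).

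Among the sterol sensors, Srebf2 (ENSMUSG00000022463, chromosome 15, 82147181 to 82205379, plus strand) encodes SREBP-2. It stood at 173 ± 27 CPM without and 177 ± 46 CPM with hydroquinone in wild type, and at 159 ± 20 and 187 ± 23 CPM in knockout (SD, n = 4 libraries each). Knockout libraries read 134, 154, 176 and 173 CPM untreated and 153, 203, 202 and 190 CPM exposed. All but 1 of the exposed libraries were therefore above the highest untreated one, and the fitted change was 0.23 (SE 0.17, edgeR adjusted p = 1.00). In wild type the exposed libraries split into 231 and 200 CPM on one side and 138 and 139 CPM on the other, and the fitted change was 0.03 (SE 0.17). Nr1h2 (ENSMUSG00000060601, chromosome 7, 44549616 to 44553951, minus strand) encodes LXR-beta, a receptor for oxysterols. It ranged from 45.9 to 79.1 CPM over the 16 libraries, both extremes being exposed wild-type libraries, and its average change with hydroquinone was 0.09 (SE 0.11, edgeR adjusted p = 0.942).

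Synthesis is represented by Hmgcs1 (ENSMUSG00000093930, chromosome 13, 119690379 to 119708260, plus strand), the enzyme that makes HMG-CoA for the mevalonate pathway. In untreated wild type its libraries read 308, 201, 231 and 270.0 CPM, and in exposed wild type 321, 285, 184 and 186 CPM. Untreated knockout libraries read 230.1, 268, 216 and 196 CPM, and exposed ones 243, 266, 196 and 211 CPM. The exposed wild-type group held both the highest and the lowest library, so the spread inside it spanned the other groups. The average change with hydroquinone was -0.02 (SE 0.13, edgeR adjusted p = 0.983), and its 95% interval in fold was 0.808 to 1.20.

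Efflux is represented by Abca1 and Abcg1, the transporters that load cholesterol onto lipid-poor apolipoprotein and onto mature particles. Abca1 (ENSMUSG00000015243, chromosome 4, 53030787 to 53159895, minus strand) read 95.5, 178, 181 and 143 CPM in untreated and 148, 93.8, 254 and 182 CPM in exposed wild type. In knockout it read 114, 209, 147 and 139 CPM untreated and 130, 179, 248 and 232 CPM exposed. Exposed groups had the higher means, 170 ± 67 against 150 ± 40 CPM in wild type and 197 ± 54 against 152 ± 40 CPM in knockout (SD, n = 4 libraries each), with wide overlap. The average change was 0.28 (SE 0.21, edgeR adjusted p = 0.918). In knockout it was 0.37 (SE 0.30), but -0.10 among the libraries without a letter alone and 0.75 among those with one. Abcg1 (ENSMUSG00000024030, chromosome 17, 31057675 to 31117988, plus strand) ranged from 24.8 to 58.7 CPM, and its average change was 0.11 (SE 0.18, edgeR adjusted p = 0.950). Its lowest library, at 24.8 CPM, and nearly its highest, at 58.1 CPM, were both in the exposed knockout group.

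Apoe (ENSMUSG00000002985, chromosome 7, 19696109 to 19699188, minus strand) encodes apolipoprotein E, an apolipoprotein that RPE and glial cells secrete. Untreated wild-type libraries read 6493, 6244, 6271 and 6071 CPM, and exposed ones 6727, 6804, 5956 and 7212 CPM. Untreated knockout libraries read 7733, 5481, 6917 and 5241 CPM, and exposed ones 6450.1, 7889, 9163 and 9752 CPM. All exposed knockout libraries but 1 were above every library of the other groups, while the remaining one lay inside the untreated knockout range. Mean levels were 6269.95 ± 173 and 6675 ± 524 CPM in wild type, and 6343 ± 1186 and 8313 ± 1466 CPM in knockout (SD, n = 4 libraries each). In knockout the fitted change was 1.31-fold (95% interval 1.04 to 1.65), or 0.39 on the log2 scale (SE 0.16, edgeR adjusted p = 1.00). In wild type it was 0.09 (SE 0.16), and averaged over genotype 0.24 (SE 0.11, edgeR adjusted p = 0.875). The difference between the genotypes' changes was 0.30 (SE 0.22, 95% interval -0.17 to 0.77, edgeR adjusted p = 1.00), so the response was not shown to depend on genotype. Under hydroquinone, knockout exceeded wild type by 0.32 (SE 0.16, 95% interval -0.02 to 0.65, edgeR adjusted p = 1.00).

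The knockout change of Apoe came mainly from libraries of 1 identifier form. It was 0.64 (SE 0.21) among the 4 knockout libraries with a letter, where the means were 6079 CPM untreated and 9458 CPM exposed. Among the 4 without a letter it was 0.09 (SE 0.27), with means of 6607 and 7169 CPM. Without the 2 libraries of fewest genes it was 0.48. Between Apoe and the mean log2 level of the 15 rod markers Pearson's r was -0.69 over 13 mice (Spearman's rho -0.65, permutation p adjusted over 96 relations 0.11 and 0.17), which did not pass. Without the 2 mice farthest from the median rod score r was -0.49, and within the identifier forms it was -0.31 and -0.94. Summed rod markers ran from 366 to 24893 CPM in untreated and from 264 to 22567 CPM in exposed knockout. With the rod score as a covariate the knockout change of Apoe was 0.31 (SE 0.13, edgeR adjusted p = 1.00). For other retinal neurons r was -0.66 and rho -0.62 (permutation adjusted p = 0.16 and 0.18), -0.58 without the 2 farthest mice and -0.27 and -0.94 within the forms. The score of 8 choroid melanocyte markers had r of 0.61 and rho of 0.48 to Apoe (permutation adjusted p = 0.18 and 0.34), 0.50 without the 2 farthest mice and -0.06 and 0.93 within the forms. Those markers summed to 6089, 6978, 6747 and 4017 CPM in untreated and to 4288, 7872, 9259 and 8822 CPM in exposed knockout. Within the exposed knockout group replicate 1 was the lowest both here and for Apoe, and within the untreated knockout group replicate 4 was. Macrophages, which also make apolipoprotein E, had a marker score with r of 0.51 and rho of 0.51 to Apoe (permutation adjusted p = 0.25 and 0.30), 0.40 without the 2 farthest mice and 0.23 and 0.62 within the forms. Their 10 markers summed to 316 to 592 CPM in untreated and 487 to 631 CPM in exposed knockout. The score of the 11 RPE markers had r of 0.42 and rho of 0.30 to Apoe (permutation adjusted p = 0.39 and 0.59). Its r was 0.51 without the 2 farthest mice and -0.27 and 0.81 within the forms. The RPE markers summed to 27061, 25227, 29099 and 21356.5 CPM in untreated and to 20754, 22704, 26916 and 31704 CPM in exposed knockout. For Muller glia and astrocytes r was -0.28 and rho -0.39 (permutation adjusted p = 0.59 and 0.49). The part of RNA of these cell types in the Apoe values was not tested.

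Lipoprotein assembly is represented by Mttp (ENSMUSG00000028158, chromosome 3, 138089854 to 138144968, minus strand), the transfer protein that lipidates apolipoprotein B. It was the scarcest member and was counted in every library, from 14.6 to 24.8 CPM, with no fewer than 322 counts. The group means were 17.5 ± 3.9, 19.6 ± 3.6, 19.4 ± 3.1 and 18.3 ± 2.4 CPM in untreated and exposed wild type and untreated and exposed knockout (SD, n = 4 libraries each). The average change was 0.04 (SE 0.12, edgeR adjusted p = 0.967), with an interval of 0.857-fold to 1.24-fold. Its partner Apob had 0 counts in all 16 libraries, which allows at most 0.0849 to 0.142 CPM per library at a floor of 3 counts. Apoa4 was also at 0 in all 16, and 8 further pathway genes, among them Apoa1, Abcg5 and Abcg8, were too low to be tested.

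For Sucnr1 loss the members spread around 0. In untreated mice 4 of 8 were above 0, from -0.15 (Hmgcs1) to 0.18 (Scarb1), with a median of -0.02, where 53.2% of all genes were above 0. Under hydroquinone 5 of 8 were above 0, from -0.17 (Abcg1) to 0.32 (Apoe), and 53.1% of all genes. Averaged over treatment these were 5 of 8 and 55.7%. None had an unadjusted p below 0.05 in either treatment, on average or for the interaction, against 1.3%, 4.15%, 2.96% and 1.9% of all genes. These contrasts share libraries with those for hydroquinone, so the values are not independent of them.

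Of 74 other pathway genes on the lists, 64 were expressed enough to be tested and 0 passed in any of the 7 contrasts with edgeR. DESeq2 called 1 of them, Srebf1, for hydroquinone in knockout and on average. Srebf1 (ENSMUSG00000020538, chromosome 11, 60199089 to 60222581, minus strand) encodes SREBP-1, which drives fatty acid synthesis genes, and its promoter stretch with the LXR-type repeat is printed above beside that of Abca1. Of 59 pathway genes with a promoter entry only these 2 held the repeat, and whether it bears on their levels was not tested. In untreated knockout Srebf1 read 186, 178, 214 and 214 CPM and in exposed knockout 270.1, 258, 324 and 350 CPM. The knockout groups did not overlap, which held for 1.91% of all genes. In wild type Srebf1 read 170, 214, 206 and 237 CPM untreated and 268, 251, 241 and 234 CPM exposed. There only the highest untreated library was above the lowest exposed one. The log2 fold change was 0.60 (SE 0.12) in knockout, from 198 ± 19 to 301 ± 44 CPM, with edgeR adjusted p = 0.330. In wild type it was 0.27 (SE 0.12, edgeR adjusted p = 0.994), and averaged over genotype 0.43 (SE 0.09, edgeR adjusted p = 0.160). With DESeq2 the adjusted p was 0.0014 on average and 0.0053 in knockout, and with the identifier form as a covariate in edgeR it was 0.036 on average. Over the alternatives the adjusted p on average ran from 0.0014 to 0.999, while the log2 fold change stayed between 0.36 and 0.47. The interaction was 0.34 (SE 0.17, 95% interval -0.04 to 0.71, edgeR adjusted p = 1.00). Without a letter the Srebf1 means went from 188 to 253 CPM in wild type and from 182 to 264 CPM in knockout. With a letter they went from 225 to 234 CPM in wild type, with 1 exposed library, and from 214 to 337 CPM in knockout. Over the alternatives the wild-type change ran from 0.055 to 0.44 and the interaction from 0.063 to 0.60.

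Srebf1 belongs to a list of 12 LXR target genes, of which 10 were tested, Abca1, Abcg1 and Apoe among them. In knockout 10 of 10 were higher with hydroquinone, with a median of 0.31, where 49.6% of all genes were higher. None of the 10 passed with edgeR, and 3 had an unadjusted p below 0.05, which 2.97% of all genes had. Across 28 alternatives 7 to 10 of the 10 were higher, with medians from 0.14 (libraries without a letter) to 0.44 (libraries with one). In wild type 7 of 10 were higher and 3 lower, with a median of 0.13, where 50% of all genes were higher. Averaged over genotype 7 of 10 were higher and 3 lower as well, with a median of 0.22. All 10 were measured in the same libraries, so these counts do not stand for 10 separate observations. Mylip, a ubiquitin ligase induced by LXR, went from 96.8 ± 6.4 to 124 ± 7 CPM in wild type. It went from 98.3 ± 15.9 to 112 ± 13 CPM in knockout (SD, n = 4 libraries each). The wild-type groups did not overlap, which held for 2.91% of all genes. The average change of Mylip was 0.27 (SE 0.08, edgeR adjusted p = 0.771). Rxra, the shared partner of LXR, changed by 0.28 on average (SE 0.08, edgeR adjusted p = 0.630), from 106 ± 8 to 136 ± 14 CPM in knockout.

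**Figure D3:**
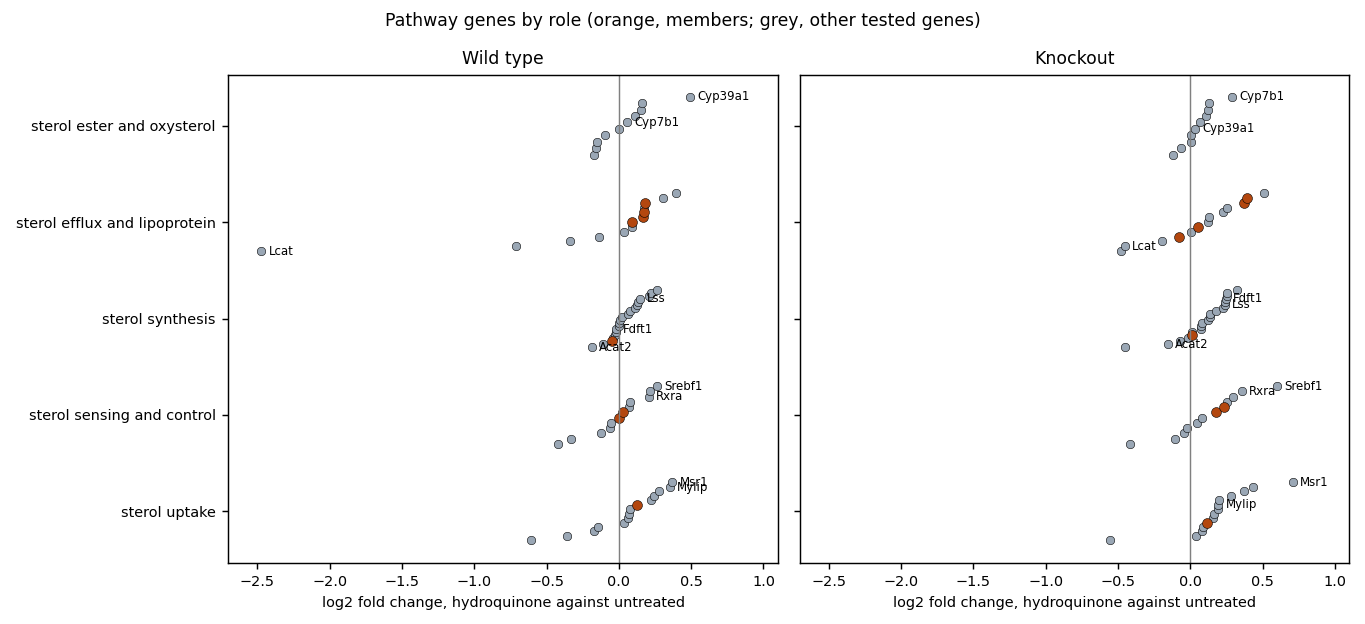
Log2 fold change with hydroquinone (horizontal axes) of all tested pathway genes by role (vertical axis) in wild type and knockout; orange points are members and grey points other genes, and the genes named by rule are labelled. Srebf1 is at 0.27 and 0.60, and Lcat is far to the left in wild type at -2.47.

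No gene of the other roles passed. With hydroquinone 49.6% of all genes were above 0 in knockout and 50% in wild type. For sterol uptake, 13 of 14 tested genes were above 0 in knockout with hydroquinone (median 0.18) and 10 of 14 in wild type (median 0.07). Across 28 alternatives 7 to 13 of the 14 were above 0 in knockout. The medians ran from 0.02 (libraries without a letter) to 0.38 (libraries with one). Msr1, a macrophage scavenger receptor, changed by 0.54 on average (SE 0.25, edgeR adjusted p = 0.880). Among efflux and lipoprotein genes, Lcat, which esterifies cholesterol on lipoproteins, changed by -1.46 on average (SE 0.46, edgeR adjusted p = 0.777). Its level was low, and its untreated wild-type libraries read 10.0, 2.90, 0.865 and 3.32 CPM, so that group rested largely on 1 library. Cyp39a1, an oxysterol hydroxylase, changed by 0.26 (SE 0.10, edgeR adjusted p = 0.825) and Cyp7b1, another, by 0.17 (SE 0.14, edgeR adjusted p = 0.922). Of 20 sterol synthesis genes, 16 were above 0 with hydroquinone in knockout (median 0.13) and 12 in wild type (median 0.02). Across 28 alternatives 11 to 17 of the 20 were above 0 in knockout, with medians from 0.02 to 0.21. The synthesis genes with the smallest p were Acat2 (-0.17, SE 0.09, edgeR adjusted p = 0.901) and Lss (0.19, SE 0.12, edgeR adjusted p = 0.918). Of 12 sterol sensing and control genes, 8 were above 0 with hydroquinone in knockout and 6 in wild type. For 13 efflux and lipoprotein genes these counts were 9 and 9, and for 10 sterol ester and oxysterol genes 8 and 5. The wild-type median changed sign in 6 of 28 alternatives for synthesis genes and in 7 for sensing and control genes.

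In untreated mice the 20 sterol synthesis genes, Hmgcs1 included, all had a fitted level below wild type in knockout, with a median log2 difference of -0.16 against 0.01 for all genes. None passed with edgeR, DESeq2 or limma, and 0 of the 20 had an unadjusted p below 0.05 with edgeR, which 1.3% of all genes had, and 53.2% of all genes were above 0. Across 28 alternatives 15 to 20 of them were lower, and the median ran from -0.23 to -0.11. With hydroquinone 14 of 20 were lower in knockout (median -0.08). There 4 to 18 of the 20 were lower across 28 alternatives, and the median was above 0 in 3 of them. These medians ran from -0.20 to 0.13, the highest in libraries with a letter, where the exposed wild-type arm is 1 library. Levels of these genes were correlated across mice, so the count does not stand for 20 separate observations.

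The correlation was described from Srebf2. Over the 13 mice Srebf2 had a positive r with 16 of 16 SREBP-2 target genes and above 0.5 with 13 of them, with a median of 0.73. Over all tested genes the median r with Srebf2 was -0.03, and 12.0% of genes were above 0.5. The highest was Fdft1, squalene synthase (r = 0.90), and the lowest Idi1 (r = 0.41). Against the mean of the 16 targets Srebf2 had r of 0.84 (rho 0.84), 0.71 without the 2 mice farthest from the median, and 0.93 and 0.82 in libraries without and with a letter. For Hmgcs1, itself a target, the median r with the other 15 was 0.69. Its promoter and that of Srebf2 hold the same 8 capital letters shown above. Of 59 pathway genes with a promoter entry, 3 held these letters, namely Apoe, Hmgcs1 and Srebf2. No other SREBP-2 target on the list was among them, and the r of Apoe with Srebf2 was 0.40. Whether the letters bear on the correlations was not tested. For Nr1h2 and the 10 LXR targets the median r was 0.26, with Apoe highest (0.57) and Abca1 lowest (-0.48). These correlations are given as descriptions, since libraries share depth and tissue makeup.

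**Figure D4:**
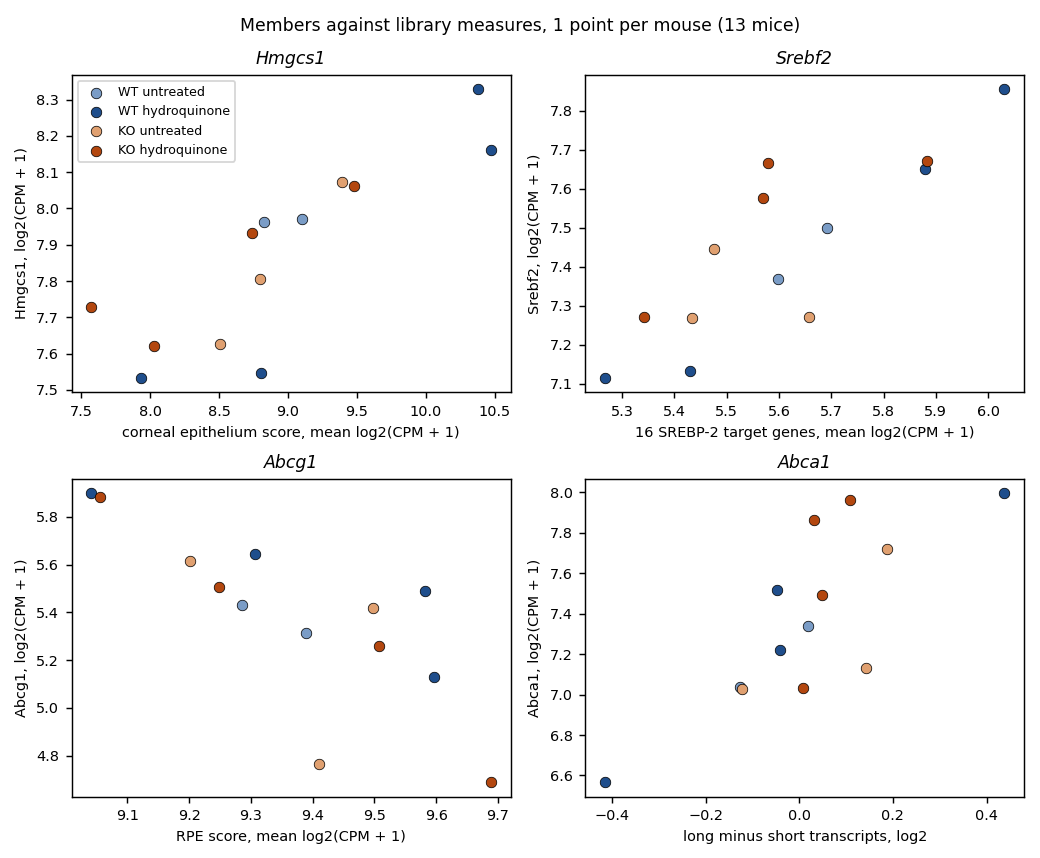
One point per mouse (13 mice, coloured by group): Hmgcs1 against the corneal epithelium score, Srebf2 against the mean of 16 SREBP-2 target genes, Abcg1 against the RPE score, and Abca1 against the level of long minus short transcripts, with members on vertical axes in log2(CPM + 1). Pearson's r is 0.85, 0.84, -0.78 and 0.79 in that order, and the groups overlap along each axis.

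Of 96 relations between 8 members and 12 cell type marker scores over 13 mice, 1 passed after adjustment by both Pearson and Spearman permutation tests. Hmgcs1 rose with the score of 7 corneal epithelium markers, with r of 0.85 (permutation p = 2.2e-04, adjusted 0.021) and rho of 0.86 (permutation p = 2.6e-04, adjusted 0.023). Without the 2 mice farthest from the median score r was 0.74, and it was 0.91 and 0.56 in libraries without and with a letter. The gene most like Hmgcs1 over the 13 mice was Itgb4, an integrin of epithelial hemidesmosomes (r = 0.97). Scarb1 had the opposite sign with the same score, with r of -0.75 (permutation adjusted p = 0.068) and rho of -0.85 (permutation adjusted p = 0.023), and within the forms -0.58 and -0.60. Summed corneal markers overlapped between groups, from 4761 to 14493 CPM in untreated and 3932 to 27948 CPM in exposed wild type, and from 5902 to 10847 CPM in untreated and 3384 to 13114 CPM in exposed knockout.

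Abca1 and Abcg1, both exporters of cholesterol, went in opposite directions across mice. Their r was -0.77 (permutation adjusted p = 0.033 over 28 pairs of members) and rho -0.74 (permutation adjusted p = 0.048), and r was -0.72 without the 2 mice farthest from the median of Abca1. It was -0.75 and -0.69 within the identifier forms. With the score of 11 RPE markers, r was positive for Abca1 (r = 0.78, rho = 0.76, permutation adjusted p = 0.068 and 0.08), and negative for Abcg1 (r = -0.78, rho = -0.83, permutation adjusted p = 0.068 and 0.027). Without the 2 mice farthest from the median RPE score these r were 0.65 and -0.62, and within the forms 0.70 and 0.68 for Abca1 and -0.79 and -0.82 for Abcg1. Srebf2 and Nr1h2 went together (r = 0.74, rho = 0.76, permutation adjusted p = 0.033 and 0.048), with 0.68 without the 2 mice farthest from the median of Srebf2 and 0.58 and 0.94 within the forms. Scarb1 and Hmgcs1 went apart (r = -0.71, rho = -0.75, permutation adjusted p = 0.07 and 0.048), with -0.69 without the 2 mice farthest from the median of Scarb1 and -0.67 and -0.40 within the forms.

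**Figure D5:**
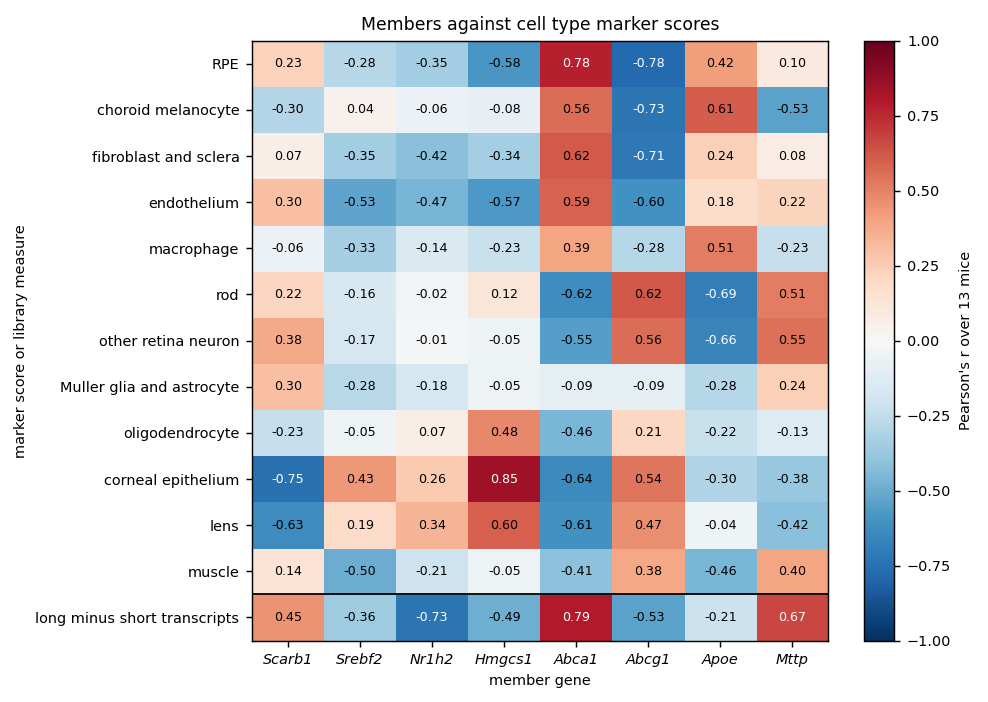
Pearson's r over 13 mice (colour and number) of each member (columns) with 12 cell type marker scores and with the level of long minus short transcripts (rows). The Hmgcs1 column is darkest at corneal epithelium (0.85), and Abca1 and Abcg1 carry opposite signs in all rows but that of Muller glia and astrocytes (both -0.09).

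Abca1 has a long transcript, and a measure of length was added after its values were seen. Each gene's log2 level was first centred on its mean over the 16 libraries. In each library the measure was the median centred level of genes with over 6 kb of exon minus that of genes with under 2 kb. It ran from -0.41 to 0.44. Over 16 relations with this measure or the number of detected genes, Abca1 rose with it (r = 0.79, permutation adjusted p = 0.015; rho = 0.74, permutation adjusted p = 0.08). Without the 2 mice farthest from the median r was 0.55, and it was 0.96 and 0.21 in libraries without and with a letter. Nr1h2 went the other way (r = -0.73, permutation adjusted p = 0.039; rho = -0.41, permutation adjusted p = 0.54), with -0.36 without the 2 farthest mice and -0.87 and 0.40 within the forms, so this relation rested on few mice. The 100 genes most like Abca1 had a median exon length of 8.60 kb and those most like Nr1h2 one of 2.88 kb, where all tested genes had 4.35 kb. The part of transcript length in the relations between members was not tested.

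The genes most like each member were named by their r over the 13 mice. They were Frem1 (0.98) and BC067074 (0.98) for Abca1, Aspscr1 (0.97) and Cope (0.97) for Nr1h2, and Hs1bp3 (0.95) and Tst (0.95) for Apoe. For Hmgcs1 Ncaph (0.92) came after Itgb4, and for Srebf2 Ptk7 (0.91) and Kdm2b (0.90) came first. For Scarb1 they were Rtl6 (0.90) and Clec16a (0.89), for Mttp 3222401L13Rik (0.92) and Phf20 (0.91), and for Abcg1 Trafd1 (0.88) and Ybx1 (0.87).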

How the data were processed

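Total RNA of the RPE was sequenced on an Illumina NovaSeq, per the labels' protocols. The values the authors deposited are read counts by Ensembl identifier (100% of them whole), under a file name that announces another unit. The submitters' processing notes name STAR, Cufflinks, DESeq2 and mm10, with no roles or versions. The strand setting is not given in the sources used here, so reads of overlapping genes cannot be told apart. Symbols, positions and exon lengths came from GENCODE vM21 (51719 of 51912 identifiers matched). The 15380 genes averaging 1 CPM or more (99.8% of counts) were tested with edgeR 4.0.16 (TMM, quasi-likelihood F test, all 16 libraries, R 4.3.3), and p-values were adjusted by the Benjamini-Hochberg method. Alternatives used limma 3.58.1 and DESeq2 1.42.0. The edgeR test was tested on simulated counts for 4 of the contrasts. It recovered 7.46% to 11.9% of 1.5-fold changes, 40.9% to 55.4% of 2-fold changes and 73.8% to 84.8% of 4-fold changes. For this, 66 or 67 genes were changed at each size and all libraries were drawn independently, with no shared mice. The simulated contrasts gave 87 to 103 calls where the real ones gave 0 to 7, so these shares may be too high for the real data. Marker scores are means of log2(CPM + 1), and relations used eyes averaged per mouse with 100000 permutations, 2-sided. Named pathway genes are the 2 with the smallest p per list for average hydroquinone, and the 2 genes most like each member. Motifs and members' examples outside that rule were chosen with their values seen. The members and lists were chosen with earlier results of these data known.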

Additional observations from a re-analysis of the deposited data

How the results depend on the processing

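Over at most 28 alternatives each, 34 gene results gave 939 values. Of these, 886 kept their direction and their side of the threshold and 50 changed sign without passing in either form. Another 3 (all Srebf1) newly passed and 0 ceased to pass. The number of members called was 0 in every contrast and setting, and the number of other pathway genes called went from 0 to 1 with DESeq2 (hydroquinone in knockout and on average) and with the identifier form as a covariate (on average). The counts over all genes moved more: 1, 7 and 13 genes passed for hydroquinone in wild type, in knockout and on average, from 0 to 20, 0 to 14 and 0 to 39 across alternatives.

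Sign changes came at values near 0 or in small subsets. For hydroquinone in wild type, libraries with a letter alone gave -0.038 for Abcg1, -0.018 for Scarb1 and -0.41 for Srebf2, where the exposed arm is 1 library assumed to vary like the other groups, and Srebf2 was -0.038 without the 2 libraries of fewest genes. Nr1h2 was 0.014 with median-of-ratios scaling, 0.00970 without a filter, 0.014 with DESeq2, 0.013 with eyes summed, 0.019 with the form covariate, 0.00421 with the rod covariate and 0.13 in libraries without a letter. In knockout, libraries without a letter gave -0.10 for Abca1 and 0.13 for Mttp, and those with one -0.44 for Abcg1 and -0.016 for Hmgcs1. Hmgcs1 was also -0.00208 with median-of-ratios scaling, -0.00211 with DESeq2, -0.00486 with filterByExpr, -0.00962 with the knockout groups alone and -0.00755 without the libraries of fewest genes. On average, libraries with a letter, which include that 1-library arm, gave -0.24 for Abcg1, -0.050 for Mttp, -0.12 for Srebf2 and -0.00241 for Nr1h2. Leaving out each library in turn moved wild-type changes from -0.081 to 0.38 (Abca1), -0.12 to 0.14 (Srebf2), -0.21 to 0.064 (Hmgcs1) and -0.12 to 0.13 (Nr1h2). It moved knockout changes from -0.16 to 0.23 (Abcg1) and -0.070 to 0.099 (Hmgcs1), and average changes from -0.025 to 0.12 (Mttp) and -0.099 to 0.037 (Hmgcs1). The sign turned without exposed wild-type replicate 3 for Abca1 in wild type. For the others, where the change itself was near 0, it turned on leaving out any of 2 to 5 libraries. The cause of these sign changes was not tested.

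The fits on libraries of 1 identifier form alone, the fits without the libraries of fewest genes and the length measure were chosen after seeing the data. No paired analysis was possible because the labels share no replicate numbers between groups and no mouse was in more than 1 group. With 4 libraries a group, the 95% intervals of the Abca1 changes within a genotype reached from 0.730-fold to 2.01-fold.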
